A study of Mus musculus with 6 samples.

Results

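The laminins and basement membrane linkers described here are 9 genes, chosen by symbol: the laminin chains Lama3, Lama5, Lamb1, Lamb2, Lamb3 and Lamc1, the linker Nid1, and the heparan sulfate proteoglycans Hspg2 and Agrn. All 9 were found once each among the 56748 genes of the deposited expression table. RNA had been sequenced from primary airway basal stem cells of wild-type mouse tracheas, labelled as epithelial cells, on day 4 of culture. One group of 3 libraries came from cells given UK-5099, which blocks pyruvate uptake into mitochondria. The other group of 3 came from cells given 3 inhibitors together, Y-27632 (a kinase inhibitor), A8301 (which blocks TGF-beta receptor kinases) and DMH-1 (which blocks BMP receptor kinases). The labels give no untreated group, no strain, sex or age, and give no source animal or culture for a replicate. The p-values may therefore measure only technical spread. They also do not settle whether the UK-5099 cultures held any of the other compounds. Each difference below is therefore between these media, with no baseline for either.

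A basement membrane is the thin sheet of matrix on which an epithelium rests. Laminins, its main adhesive proteins, are heterotrimers of an alpha, a beta and a gamma chain that assemble in the cell before secretion, polymerise outside it and are bound by integrins and dystroglycan. Nidogen and the proteoglycans perlecan and agrin tie the laminin sheet to the type IV collagen network and to growth factors. In airways, basal cells are the cells anchored to this sheet, by hemidesmosomes whose integrin binds the laminin that holds the Lama3 and Lamb3 chains.

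Transcripts of the Lama5 and Lamb2 chains and of perlecan (Hspg2) were more than 2-fold lower with UK-5099 than with 3 inhibitors, and those of Lamb1 were 2.12-fold higher. Agrn and Lamc1 were lower by smaller folds, Lamb3 was slightly higher, and Lama3 and Nid1 did not pass the test. In counts, 7 of the 9 genes were called at an adjusted p under 0.05 with limma, 2 higher and 5 lower with UK-5099. Of 15704 genes tested, 53.8% were called, 27.2% higher and 26.6% lower, so being called is common in this comparison. Of those calls 50.6% were higher, and 39.1% were when each library was centred on its median. The values of the 3 UK-5099 libraries lay wholly apart from those of the other 3 libraries for the same number of members, 7 of 9, and for 60.8% of all genes tested. Differences of at least 2-fold were called for 4 members, Lama5, Lamb2 and Hspg2 among the lower and Lamb1 among the higher, and for 10.1% of all genes tested. The median log2 difference of the 9 members was -0.42, beside -0.00 over all genes tested. The median size of the log2 difference was 0.59 over the 9 members and 0.30 over all genes tested. In RNA from bulk culture, fewer cells of a type and less RNA per cell cannot be told apart.

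**Figure D1:**
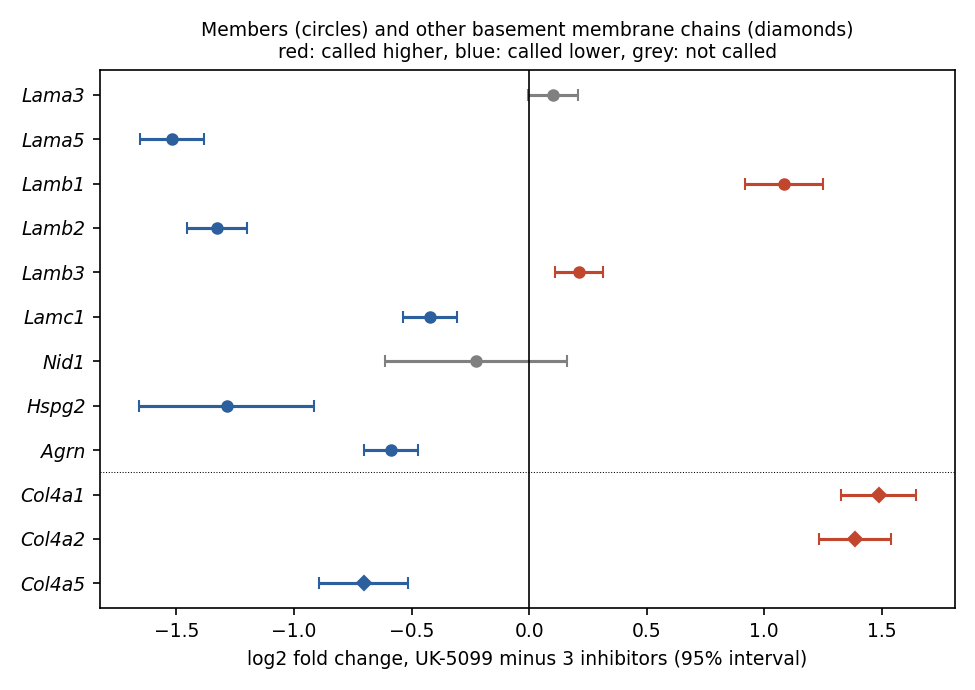
Log2 differences, UK-5099 minus 3 inhibitors, with 95% intervals for the 9 members (circles) and for Col4a1, Col4a2 and Col4a5 (diamonds), red where called higher, blue where called lower and grey where not called. Lama5, at -1.52, has the lowest value among the members and Lamb1, at 1.09, the highest.

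The alpha chains carry the domains that integrins and dystroglycan bind. Lama5, the alpha chain of the laminins found in most epithelial basement membranes, had 10282, 10088 and 11993 normalized counts in UK-5099 replicates 1 to 3. With 3 inhibitors it had 31580.2, 29819.6 and 31013. Every UK-5099 library lay far below every 3-inhibitor library. The means were 10788 ± 1048 and 30804 ± 899 (SD, n = 3), and the log2 difference was -1.52 ± 0.06 (SE; limma, adjusted p = 5.54e-09), or 2.86-fold lower.

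Lama3, the alpha chain of the hemidesmosome's laminin, had 8129, 8359.8 and 9061 normalized counts with UK-5099. Its values with 3 inhibitors were 8257, 7761 and 7769.6. The groups overlapped, since 1 library with 3 inhibitors exceeded the lowest UK-5099 library. The log2 difference of 0.10 had a 95% interval from -0.00 to 0.21 and was not called (limma, adjusted p = 0.0988). Multiplying each library by a factor from its upper quartile turned this into a call, at 0.13 with an adjusted p of 0.0196. The 2 alpha chains therefore did not move together: Lama3 was close to equal between groups while Lama5 was not.

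Among the beta chains, Lamb1 pairs with most alpha chains in young and growing tissues, Lamb2 takes its place in many mature basement membranes, and Lamb3 belongs to the hemidesmosome's laminin. Lamb1 had 536, 509 and 571 normalized counts with UK-5099 and 258, 248 and 254 with 3 inhibitors. Its groups did not overlap, and the log2 difference was 1.09 ± 0.08 (limma, adjusted p = 3.42e-07). Lamb2 went the other way, with 552, 507 and 566 normalized counts with UK-5099 against 1384, 1328 and 1362 with 3 inhibitors. It fell by 1.33 on the log2 scale (SE 0.06; limma, adjusted p = 1.02e-08), a 2.51-fold lower level in which no library of one group came near the other group. Lamb3, the most abundant of the beta chains, had 4434, 4223 and 4605 normalized counts with UK-5099 and 3981, 3723 and 3748 with 3 inhibitors. Its groups lay apart but close, with a log2 difference of 0.21 ± 0.05 (limma, adjusted p = 0.00226), or 1.16-fold higher.

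**Figure D2:**
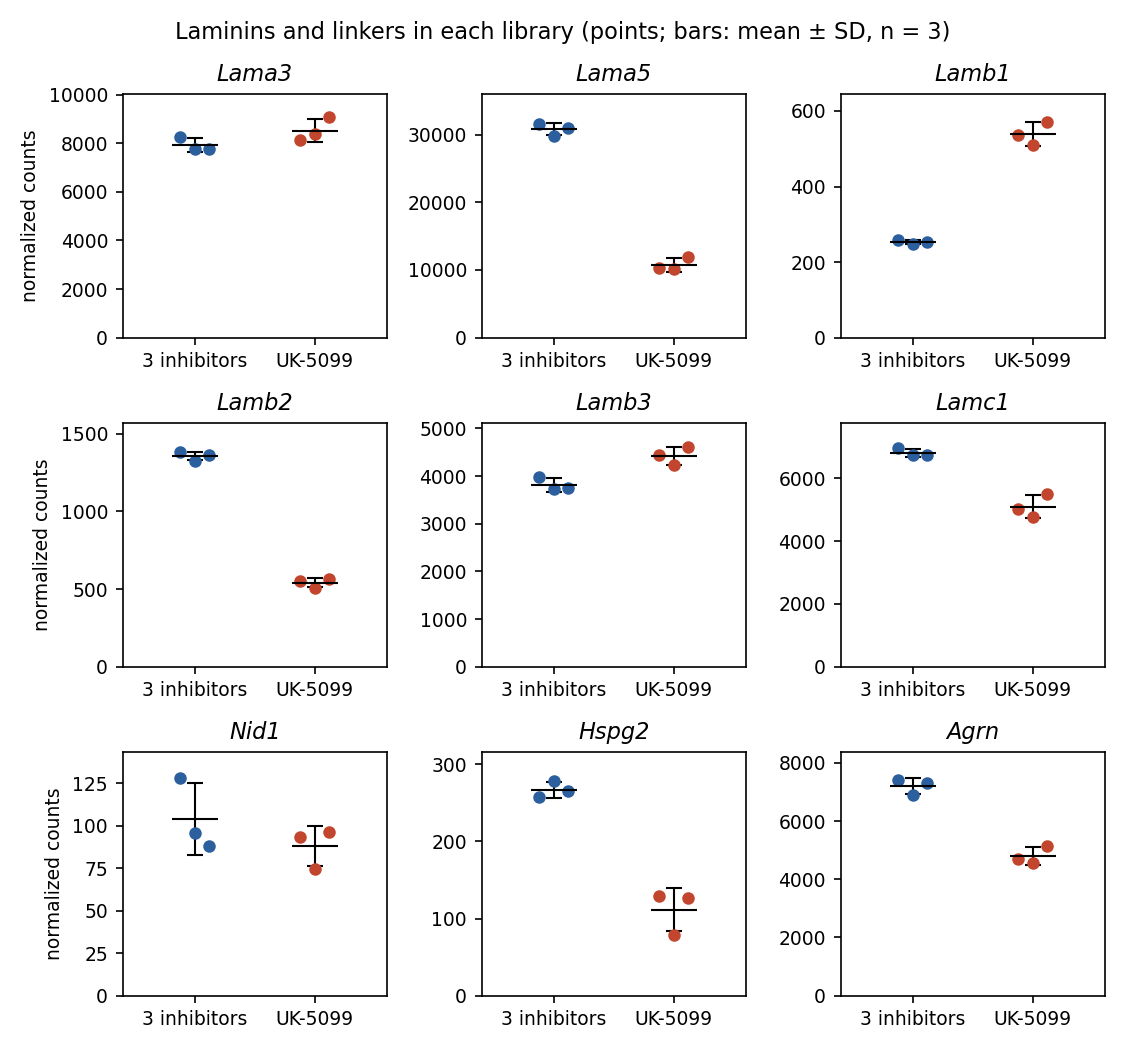
Normalized counts of the 9 members in each of 6 libraries, with the mean and SD of each group (3 inhibitors in blue, UK-5099 in red; n = 3). The points of Lama5, Lamb2 and Hspg2 are lower with UK-5099 and those of Lamb1 higher, and the points of Lama3 and Nid1 overlap.

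Lamc1, the gamma chain shared by most laminins and the chain to which nidogen binds, had 5021, 4771 and 5511 normalized counts with UK-5099. With 3 inhibitors it had 6963, 6754 and 6736. The groups did not overlap, and the log2 difference was -0.42 ± 0.05 (limma, adjusted p = 3.32e-05), or 1.34-fold lower. The fall of the shared gamma chain was smaller than that of Lama5 or Lamb2, whose 95% intervals, from -1.65 to -1.38 and from -1.45 to -1.20, do not reach the interval of Lamc1, from -0.53 to -0.31.

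Nid1 encodes nidogen, the protein that links the laminin gamma chain to type IV collagen and to perlecan. It was scarce, with 93.5, 74.2 and 96.2 normalized counts with UK-5099 and 128, 95.6 and 87.7 with 3 inhibitors. The groups overlapped, and the log2 difference of -0.23 had a 95% interval from -0.61 to 0.16 (limma, adjusted p = 0.307). At this depth the result does not show that Nid1 was alike in both media.

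Hspg2 encodes perlecan and Agrn encodes agrin, large heparan sulfate proteoglycans that bind laminin and dystroglycan. Hspg2 had 129, 78.9 and 127 normalized counts with UK-5099 and 258, 278 and 266 with 3 inhibitors. All UK-5099 libraries were lower, but replicate 2 stood below the other two, and the log2 difference of -1.29 ± 0.17 (limma, adjusted p = 5.67e-05) has the widest error among the members after Nid1. Agrn was far more abundant, with 4687, 4552 and 5158 normalized counts with UK-5099 and 7409, 6895 and 7307 with 3 inhibitors. It fell by 0.59 on the log2 scale (SE 0.05; limma, adjusted p = 2.32e-06), or 1.50-fold lower, and its groups did not overlap.

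The stretch upstream of the outermost RefSeq start is shown for Lama5 and Lamb2, which fell, and for Lamb1, which rose, because the 3-inhibitor medium holds compounds that act on receptors signalling through SMAD proteins. Coordinates and sequences are of RefSeq's GRCm38.p6, not the build named for the data. The windows lie at chr2:180225905-180226109 on the minus strand for Lama5, chr9:108479612-108479846 on the plus strand for Lamb2 and chr12:31265043-31265145 on the plus strand for Lamb1. Each is printed 5′ to 3′ on the gene's strand, and capitals mark letters that match any of 5 motifs on either strand: CAGAC (SMAD proteins of the TGF-beta pathway), GGCGCC (SMAD proteins of the BMP pathway), TGANTCA (AP-1), ACGTG or GCGTG (hypoxia response) and GGGCGG (GC box). A letter can belong to matches of more than 1 motif.
Lama5: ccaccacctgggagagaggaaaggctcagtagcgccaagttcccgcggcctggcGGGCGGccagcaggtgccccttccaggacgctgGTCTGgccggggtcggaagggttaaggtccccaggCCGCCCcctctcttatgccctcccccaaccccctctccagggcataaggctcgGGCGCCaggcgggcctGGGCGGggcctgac
Lamb2: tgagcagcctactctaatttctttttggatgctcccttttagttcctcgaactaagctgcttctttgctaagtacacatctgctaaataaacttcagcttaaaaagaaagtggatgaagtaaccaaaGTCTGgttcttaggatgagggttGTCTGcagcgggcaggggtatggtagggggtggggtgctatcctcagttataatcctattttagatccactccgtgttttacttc
Lamb1: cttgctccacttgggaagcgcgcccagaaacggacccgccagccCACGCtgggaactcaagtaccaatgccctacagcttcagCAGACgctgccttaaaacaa

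RefSeq windows of 300 bases, from 250 before a start to 50 after it, were at hand for 7 of the 9 members, 9 windows in all. The printed stretches are the first 205, 235 and 103 bases of the windows of Lama5, Lamb2 and Lamb1, and the rest of each window was searched but is not printed. Over its whole window Lama5 had 1 match to CAGAC, 1 to GGCGCC and 4 to the GC box. Lamb2 had 2 matches to CAGAC and none to the other motifs. Lamb1 had 1 match to CAGAC, 1 to GGCGCC, 1 to the hypoxia motif and 2 to the GC box. The risen chain Lamb1 and the fallen chain Lama5 both held matches to both SMAD motifs, and the fallen chain Lamb2 to CAGAC only. CAGAC was in 5 of these 9 windows and in 49.6% of 32851 windows of all genes, so a match is common. GGCGCC was in 4 of 9 against 11.9%, the hypoxia motif in 4 of 9 against 43.8%, the GC box in 6 of 9 against 35.7%, and the AP-1 motif in 0 of 9 against 7.81%. Lamb3 and Agrn each had 2 of the 9 windows, and those of Lamb3 overlap, so the windows are not independent. The counts are of matching letters and were not tested against the shares over all genes, and no binding was measured.

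On a scale meant to compare genes, normalized counts per kb of exon, Lama5 had the highest mean of the members in both media. The length used joins the exons of all protein-coding transcripts of a gene, 10745 bases for Lama3. A gene present mainly as a shorter transcript would stand higher, which gene-level counts cannot show, so the order depends on these lengths. Its level was 947 ± 92.1 with UK-5099 and 2705 ± 78.9 with 3 inhibitors (SD, n = 3). With UK-5099, Lamb3 followed at 863 ± 37.4 per kb and Lama3 at 793 ± 45.2 per kb, and each overlapped its neighbour in this order, Lama5 included. With 3 inhibitors Lama5 stood apart from all other members, and the next were Agrn at 924 ± 34.9 per kb and Lamc1 at 894 ± 16.5 per kb, whose ranges overlapped. With UK-5099 these stood lower, Agrn at 615 ± 40.8 per kb and Lamc1 at 669 ± 49.4 per kb. With 3 inhibitors Lamb3 and Lama3 then shared the next rank, at 745 ± 27.7 and 738 ± 26.4 per kb. The beta chains Lamb1 and Lamb2 overlapped with UK-5099, at 92.2 ± 5.37 and 96.2 ± 5.52 per kb. With 3 inhibitors they did not, at 43.3 ± 0.879 and 241 ± 5.04 per kb. Nid1 and Hspg2 were the scarcest in both media, at 14.4 ± 1.97 and 7.84 ± 1.99 per kb with UK-5099 and 17.0 ± 3.49 and 18.8 ± 0.716 per kb with 3 inhibitors, and their order was not resolved in the latter.

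**Figure D3:**
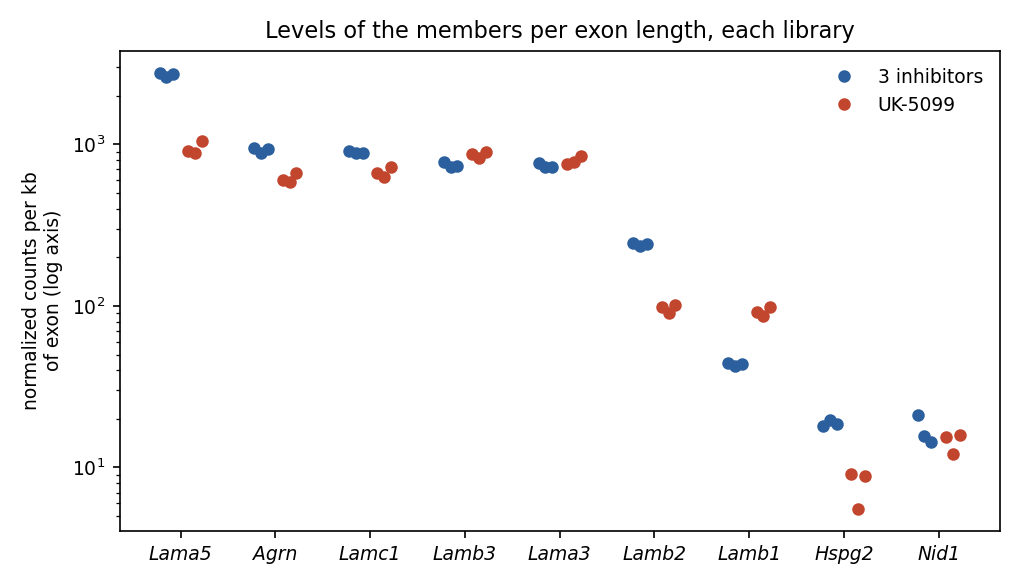
Normalized counts per kb of exon on a log axis for the members, with 1 point per library (3 inhibitors in blue, UK-5099 in red). Lama5 has the highest mean level in both groups, and the gap between Lamb1 and Lamb2 seen with 3 inhibitors is closed with UK-5099.

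Summed over the 9 members, normalized counts were 34904.5 ± 2436 with UK-5099 and 58555 ± 1658 with 3 inhibitors, 1.68-fold lower. Lama5 made up most of this gap: without it, the other 8 members summed to 24117 ± 1390.5 and 27750.3 ± 800.4, 1.15-fold lower. The share of Lama5 in the members' counts was 30.9% ± 0.826 with UK-5099 and 52.6% ± 0.318 with 3 inhibitors. As shares sum to the whole, 6 of the other 8 members had a larger mean share with UK-5099, among them Lama3, with 24.4% ± 0.685 against 13.5% ± 0.237, and Lamb3, with 12.7% ± 0.440 against 6.52% ± 0.106. These 6 include Lamc1, with 14.6% against 11.6%, and Agrn, with 13.8% against 12.3%, whose own counts were lower.

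Ratios within a library do not depend on its size factor and show how the transcript levels of 1 member stood to those of another. They are ratios of normalized counts, not per length. The ratio of Lama3 to Lama5 was 0.791, 0.829 and 0.756 with UK-5099 and 0.261, 0.260 and 0.251 with 3 inhibitors, a 3.07-fold difference. The ratio of Lamb1 to Lamb2 was 0.972, 1.00 and 1.01 with UK-5099 and 0.186 in each library with 3 inhibitors, a 5.32-fold difference and the widest of the 6 ratios computed. For the beta chain of the hemidesmosome, Lamb3 to Lamb2 was 2.90-fold higher with UK-5099 and Lamb3 to Lamb1 was 1.83-fold lower. Of the linkers, Hspg2 to Agrn was 1.62-fold lower with UK-5099, and Nid1 to Lamc1 overlapped between groups (exact permutation test, two-sided, p = 0.3). In 5 of the 6 ratios the groups did not overlap, and each gave p = 0.1 in the exact permutation test (two-sided), which is the smallest p that 3 against 3 libraries allow; adjusted over the 6 ratios it was 0.12. This permutation test therefore cannot pass a threshold of 0.05 here, whatever the size of the difference.

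**Figure D4:**
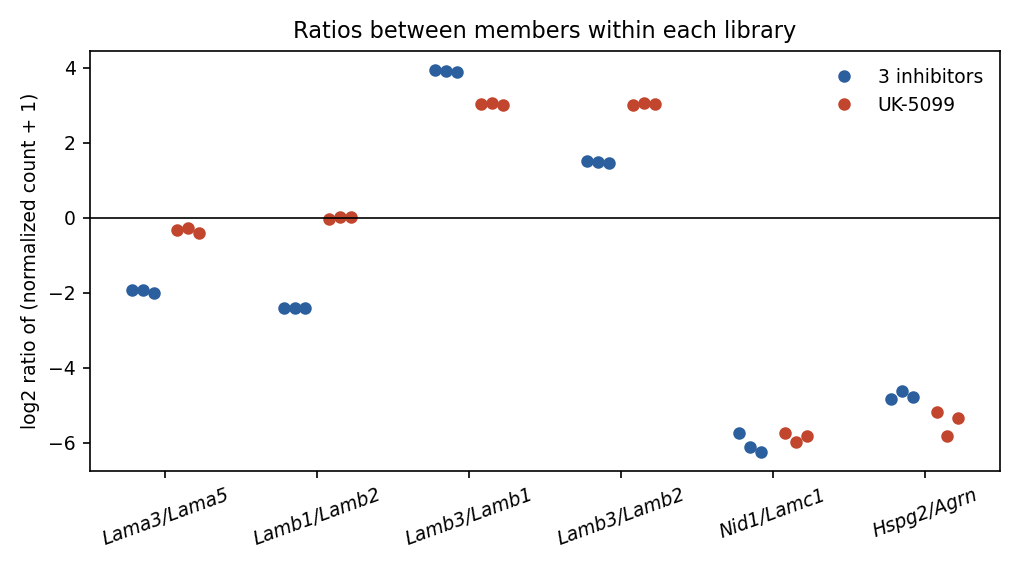
Log2 ratios of normalized counts (each plus 1) within each of 6 libraries for 6 pairs of members, by group. Lamb1 to Lamb2 lies near 0 with UK-5099 and at -2.42 with 3 inhibitors, and Nid1 to Lamc1 overlaps.

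Outside the members, the family genes Lama1, Lama2, Lama4, Lamc3 and Nid2 were below the filter of a mean of 10 normalized counts, Lama2 and Lama4 with means under 1 normalized count in both groups and Nid2 at 1.05 ± 0.149 and 4.84 ± 3.96. Lama1 had 2.42 ± 0.376 normalized counts with UK-5099 and 16.6 ± 5.70 with 3 inhibitors, and Lamc3 had 10.3 ± 2.51 with UK-5099 and a mean of 1.20 with 3 inhibitors. Without the filter both were called, Lama1 as lower (limma, adjusted p = 0.00108) and Lamc3 as higher (limma, adjusted p = 0.00222), from few reads per library.

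Type IV collagen forms the second network of the basement membrane. Of its 6 genes 5 were tested, with 2 called higher, 1 lower and 2 not called. Col4a1 and Col4a2, which form the usual collagen trimer, rose together, from 366 ± 10.4 to 1031 ± 91.8 and from 478 ± 13.4 to 1255 ± 116 normalized counts (log2 differences 1.49 and 1.39; limma, adjusted p = 2.24e-08 and 2.92e-08). Col4a5, of a different trimer, fell by 0.70 on the log2 scale (limma, adjusted p = 3.38e-05). Leaving out UK-5099 replicate 1 added Col4a3, a gene of few reads, so that 2 were lower. Among 13 tested of 20 other basement membrane proteins, 10 were higher and 3 lower, with a median log2 difference of 0.67 beside -0.00 over all genes tested. Sparc, which binds type IV collagen, was 12.1-fold higher (1339 ± 73.2 against 110.2 ± 7.20), and Col17a1, a collagen of the hemidesmosome, was also higher (11961 ± 952 against 5982 ± 147). Npnt, an integrin ligand, was 7.42-fold lower (144 ± 19.9 against 1069 ± 54.4), and Tinagl1 was 1.52-fold lower (4343 ± 119 against 6601 ± 84.6).

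**Figure D5:**
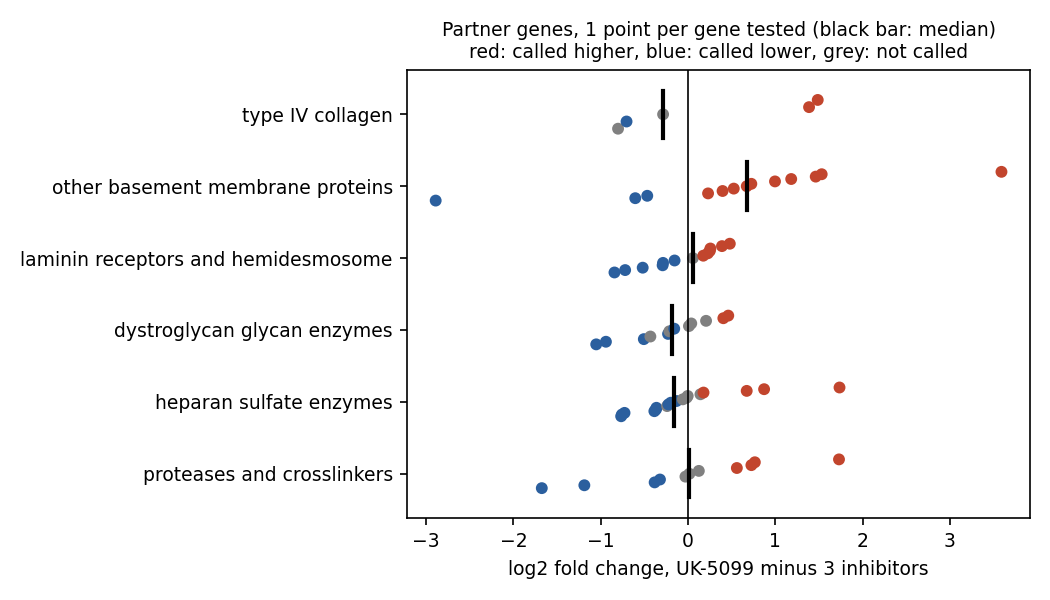
Log2 differences, UK-5099 minus 3 inhibitors, of tested genes in 6 lists of basement membrane partners, with 1 dot per gene and the median of each list. The median lies highest for the list of other basement membrane proteins, at 0.67, where 10 of 13 genes were called higher.

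All 13 receptor and hemidesmosome genes were tested, with 6 higher, 6 lower and 1 not called. Dag1, encoding dystroglycan, the receptor for laminin, perlecan and agrin, was 1.65-fold lower (4123 ± 173 against 6791 ± 245), as was Utrn, which ties dystroglycan to actin, by 1.43-fold. Dst, which anchors keratin filaments to the hemidesmosome, was 1.39-fold higher, and Itga6, the alpha chain of its integrin, was 1.31-fold higher (14482 ± 1049 against 11038 ± 197). The next integrin genes were chosen after their values were seen. Itgb4, the partner of Itga6 in the hemidesmosome, was higher by 0.26 on the log2 scale, Itga3, whose integrin also binds Lama3 and Lama5 chains, fell by 0.29, and Itgb1, its partner, was not called at 0.06 (limma, adjusted p = 0.261).

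Of 13 genes for the sugar chain on dystroglycan that laminin and the proteoglycans bind, 12 were tested, with 2 higher and 5 lower. B3galnt2, a glycosyltransferase of that chain, was 1.12-fold lower (1827 ± 59.3 against 2037 ± 26.0; limma, adjusted p = 0.00972). These counts moved with single libraries. Without 3-inhibitor replicate 3 they were 2 higher and 3 lower, and without UK-5099 replicate 1, 3-inhibitor replicate 1 or 3-inhibitor replicate 2 only 1 gene was higher.

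Of the 4 genes for the receptor that agrin signals through and its partners inside the cell, 2 were tested. Lrp4 was 2.93-fold higher (144 ± 5.62 against 48.4 ± 3.36). Dok7, one of the partners, was 4.36-fold lower at low counts (4.96 ± 1.19 against 25.6 ± 9.10). Musk, the kinase of that receptor, was at 0 in every library. Of 19 genes that build or edit heparan sulfate, the chain carried by perlecan and agrin, 18 were tested, with 4 higher and 9 lower. Sulf2, which removes sulfate groups, was 3.33-fold higher (1249 ± 95.6 against 374 ± 15.7), and the sulfotransferases Ndst1, Hs6st1 and Hs3st1 were 1.69-fold, 1.66-fold and 1.70-fold lower. Of 15 proteases and crosslinkers that act on the basement membrane, 11 were tested, with 4 higher, 4 lower and 3 not called. Mmp2, a gelatinase, was 3.32-fold higher (115 ± 27.0 against 33.3 ± 2.87) and Adamts1 1.65-fold higher, while Plat, the tissue plasminogen activator, was 2.28-fold lower and Ctsl 1.30-fold lower.

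The genes whose levels followed each extreme member most closely over the 6 libraries are given as a description, and the 6 points share the split into 2 groups and each library's depth. For Lamb1 these were Pkp1, Dsg3 and Pde8a, with Pearson r of log2 values of 0.9993, 0.9992 and 0.9989. Pkp1 and Dsg3 are desmosome genes, at 21291 ± 634 against 11882 ± 89.2 and 40506 ± 1969 against 19234 ± 258 normalized counts. Leaving out genes with placeholder names, 480 tested genes had r of at least 0.99 with Lamb1 and 757 had it with Lama5. The 3 genes named for each are therefore the top of a long list. For Lama5 the most alike were Klhdc3, Ces1d and Nucb1, at r between 0.9998 and 0.99997, and the first of these had 1459 ± 57.5 against 2296 ± 31.6 normalized counts.

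Libraries held between 19909589 and 27037795 recovered reads. The labelled cell type could be checked against its markers: all 10 basal cell markers were tested, 7 were higher and 2 lower with UK-5099, and their summed level was 315557 to 343632 normalized counts with UK-5099 against 155339 to 170192 with 3 inhibitors. Krt5 was 3.01-fold and Trp63 1.70-fold higher with UK-5099, while Ngfr was 4.59-fold lower (65.8 ± 12.8 against 304 ± 42.9), Aqp3 1.35-fold lower and Krt15 not called. Of 8 airway secretory markers 5 were tested and all 5 were lower, with sums of 7176 to 8958 against 47377 to 50073. Most of these sums came from Cbr2 alone, with 5694 to 6845 against 41531 to 43733. The basal and secretory levels thus also differed between the groups, and their part in the members' differences was not tested. Of cells that could bring laminin or perlecan of their own, fibroblast markers summed to 41.7 to 60.9 against 55.7 to 64.3, with 1 of 10 tested, none called and Col1a2, Col3a1, Lum and Postn at 0 in every library. Endothelial markers summed to 63.0 to 80.7 against 171 to 201, with 3 of 8 tested, Tie1 and Vwf lower, and Cdh5, Emcn and Cldn5 at 0. Smooth muscle markers summed to 23.2 to 40.2 against 29.5 to 38.1, with 1 of 8 tested and none called. Schwann cell markers summed to 4947 to 5563 against 9493 to 10167, nearly all from Pmp22 and Mbp, with 1 of 3 tested genes higher, 2 lower and Cdh19 at 0. Leukocyte markers, nearly all Cd68, summed to 488 to 702 against 497 to 541 with none called and Adgre1 at 0. Cartilage markers summed to 130.0 to 181 against 155 to 172, with 1 of 2 tested genes higher and Col9a1 at 0, and multiciliated cell markers to 216 to 231 against 150.1 to 204, with 2 of 4 higher and Dynlrb2 at 0. The part of the endothelial, Schwann or leukocyte difference in the fall of Hspg2 was not tested. Sex-linked transcripts, chosen after their values were seen, also differed, with Xist 1.70-fold higher and Ddx3y 1.76-fold lower with UK-5099, and the part of this in the members' differences was not tested.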

How the data were processed

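The unit of the deposited values is other than plain counts, namely log2 of read counts per gene after the authors' scaling of each library by its size factor, where text stands in for 0. Per the submitters' processing notes, HISAT2 2.1.0, DESeq2 1.36.0 and GRCm39 were used, with no roles stated. Neither the read counter nor the annotation is given in the sources used here. Per the labels, libraries were made from 1 to 1.5 µg of total RNA with the VAHTS Universal V8 kit.

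Values were raised back to normalized counts, and 359 repeated identifiers were merged. In each library at least 99.987% of nonzero values came within 0.02 of whole reads. The 15704 genes averaging 10 or more normalized counts were fitted as log2(normalized count + 1) with limma 3.58.1 in R 4.3.3 (eBayes with trend, two-sided), UK-5099 minus 3 inhibitors, with Benjamini-Hochberg adjustment over all of them. A fold is 2 to the size of the difference on this scale for members and lists. It understates the change of low genes. Errors of levels are SD over 3 libraries. Levels per kb use exon lengths of GENCODE M21, on another build. Gene-level counts cannot separate isoforms, and annotated genes overlapping members were only small RNAs, noncoding RNAs or pseudogenes. The 4 of 8 with values had 6.19 normalized counts or less, and the other 4 were not analysed here. The script was tested on simulated data.

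The members and gene lists were chosen with earlier results of these data known. Named genes were all members, other laminin and nidogen genes, up to 4 called genes per list by adjusted p, and the 3 genes most correlated with the members of largest rise and fall. Some genes that this rule names are not reported here. Alternatives were another scaling, filter, pseudocount or limma setting, voom on recovered reads, a stricter threshold, a replicate block and leaving out each library.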

Additional observations from a re-analysis of the deposited data

How the results depend on the processing

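Across 17 alternatives 5 members were lower in each, and 2 were higher in each except upper-quartile scaling, which added Lama3. Among the 38 genes followed through the alternatives, no called direction reversed. The number of all genes called ranged from 6648 at a threshold of 0.01 to 9126 without UK-5099 replicate 3. Median centring shifted the median of all genes by -0.09. With the replicate block 8423 genes were called, with 2 members higher and 5 lower. Same-numbered libraries did not clearly deviate together (correlations -0.017, 0.116 and -0.089). Correlations of differently numbered libraries ran from -0.198 to 0.193. Weak correlations from so few libraries cannot settle whether the numbers pair them. Of 272 list counts under alternatives, 11 moved by over 1.5 times. The enzymes of dystroglycan's sugar chain were 1 higher with median centring, and 1 higher and 3 lower at the threshold of 0.01. With a minimum mean of 50 no gene listed for agrin's receptor and its partners was lower. The 54 ratio differences recomputed under an alternative each stayed within the larger SD of its 2 groups from the main value. Only those with another pseudocount could have done otherwise. The replicate block leaves the mean difference unchanged, and leaving out 1 of 3 libraries moves a group mean by less than its SD. That of Nid1 to Lamc1, 0.20, ranged from 0.09 to 0.34 when a library was left out, the ends being without 3-inhibitor replicate 3 and replicate 1. With the replicate block each ratio gave p = 0.25 in an exact test that flips the signs of the same-numbered differences (two-sided). That is the smallest p this test can give with so few libraries, so it does not separate the ratios. Without 3-inhibitor replicate 2 the exact permutation p of Hspg2 to Agrn was 0.2. Depth limits Nid1, Hspg2 and the genes below the filter.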
